A study of Mus musculus with 10 samples.

Results

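The 33 genes described here make or regulate cholesterol and fatty acids, and were read in mature B cells of the bone marrow, sorted by FACS from Chat-GFP mice at steady state. They were chosen by name, as enzymes, sensors and transporters of sterol and fatty acid metabolism, and all 33 are among the 14450 genes of the deposited table. In Chat-GFP mice a green fluorescent protein reports the activity of Chat, the gene of choline acetyltransferase, which makes acetylcholine. The sort gave 5 libraries of reporter-positive cells (Chat+) and 5 of reporter-negative cells (Chat-), both from unchallenged mice that carry the same reporter. The labels give neither the age of the mice nor the animal behind each library. The p-values therefore cover the spread between these libraries, which may be technical.

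Cholesterol is built from acetyl-CoA through mevalonate, squalene and lanosterol, and most of the enzymes are under common control. When membranes run low in sterol, SCAP escorts the transcription factors SREBP1 and SREBP2 from the endoplasmic reticulum to the Golgi, where they are cut and released to the nucleus. INSIG proteins hold SCAP back when sterol is plentiful, while the LXR receptors answer to oxysterols and raise genes that export cholesterol. Lymphocytes draw on both routes to make membrane when they are activated and divide.

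The words that these factors read were searched in the RefSeq promoters of GRCm38.p6, each 300 bases long from 250 bases before to 50 bases after a start site, on both strands. Promoters were found for 26 of the 33 genes, 34 promoters in all. The NF-Y word CCAAT, a partner site of SREBP, was in 21 of the 34 (61.8%) against 37.4% of all 32851 promoters. The Sp1 word GGGCGG was in 24 of the 34 (70.6%) against 35.7%. The sterol regulatory element, searched as TCACNCCAC, was in 1 of the 34 (2.94%) against 1.24%, and the LXR word, the direct repeat DR4, in 0 of the 34 against 0.0152%. The shares count promoters, and by gene the NF-Y and Sp1 words were each found for 20 of the 26. The comparison promoters were not matched for base content or expression, so the shares do not set these genes apart. A match is a run of letters, not a measured site. Only these words were searched, so a promoter without a match may still hold a variant of the site. The promoter with the sterol word, that of Hmgcs1 at chr13:119690101-119690400 on the plus strand, is shown with that of Cyp51 at chr5:4104648-4104947 on the minus strand, which had the smallest p among the cholesterol enzymes. Capitals mark matches to the words.
Hmgcs1: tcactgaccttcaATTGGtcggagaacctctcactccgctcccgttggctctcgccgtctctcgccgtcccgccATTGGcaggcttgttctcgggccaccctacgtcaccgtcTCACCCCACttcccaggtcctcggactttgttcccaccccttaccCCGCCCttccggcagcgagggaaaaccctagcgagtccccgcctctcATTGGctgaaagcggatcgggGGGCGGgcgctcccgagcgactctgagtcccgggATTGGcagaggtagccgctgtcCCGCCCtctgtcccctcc
Cyp51: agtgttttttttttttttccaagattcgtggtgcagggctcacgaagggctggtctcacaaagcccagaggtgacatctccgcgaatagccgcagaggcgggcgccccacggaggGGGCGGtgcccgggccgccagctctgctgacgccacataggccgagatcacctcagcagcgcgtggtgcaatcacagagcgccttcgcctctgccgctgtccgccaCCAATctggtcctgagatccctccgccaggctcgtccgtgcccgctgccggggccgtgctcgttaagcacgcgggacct
The sterol word of Hmgcs1 begins at base 114 of its window. The Hmgcs1 window also holds 4 NF-Y words and 3 Sp1 words, and the Cyp51 window holds 1 of each.

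The libraries were comparable in depth, with 21530000 to 30060000 reads each as estimated from the low values, and levels are given as CPM, counts per 1000000 counts. Chat- replicate 4 stood apart. It had 1213 genes listed at 0, against 62 to 682 in the other libraries, and 11.9% of its CPM was mitochondrial, against 2.27% to 3.85%. All 11 markers of mature B cells were present in every library, with summed levels of 18796 to 21429 CPM in Chat+ and 19819 to 20078 CPM in Chat-. The 11 monocyte and macrophage markers summed to 62.1 to 115 CPM in Chat+, 45.3 to 65.5 CPM in 4 Chat- libraries and 231 CPM in Chat- replicate 4. The 8 measured stromal and endothelial markers summed to 279 to 387 CPM in Chat+, 293 to 316 CPM in those 4 libraries and 499 CPM in Chat- replicate 4. The 7 plasma cell markers summed to 407 to 683 CPM in Chat+ and 353 to 430 CPM in Chat-, the 8 neutrophil markers to 21.8 to 130 and 43.8 to 108 CPM, and the 6 erythroid markers to 528 to 881 and 449 to 1081 CPM. Of 6 T and NK cell markers 0 were in the table. None of the measured markers was at 0 in all libraries, and their part in the results was not tested. In sorted populations read in bulk, fewer cells of a type and less RNA per cell cannot be told apart.

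No gene of the pathway was found to differ between Chat+ and Chat- cells. None of the 33 genes passed the threshold with limma and Benjamini-Hochberg adjustment over all genes (adjusted p under 0.05), where 0.00692% of all genes passed. At an unadjusted p under 0.05 there was 1 member, Scd2, against 4.51% of all genes. The groups overlapped for all 33, while over all genes the Chat+ libraries lay entirely above Chat- for 1.12% and entirely below for 0.304%, together 1.43%. The fitted change was positive, that is higher in Chat+, for 19 and negative for 14. The median log2 fold change was 0.03, beside 0.04 over all genes, of which 57% were positive. The split has no stable direction. With TMM (trimmed-mean) scaling of the libraries or with median centring, 16 of the 33 were positive (median -0.01 with each). The count was 13 without Chat- replicate 4 (median -0.03) and 9 with library quality weights (median -0.04). It was 23 without Chat- replicate 2 (median 0.05). The median over all genes moved as well. That median was -0.00 with TMM scaling, with median centring and without Chat- replicate 4. It was 0.00 with library quality weights and 0.05 without Chat- replicate 2.

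The intervals were taken gene by gene from the main fit, with no adjustment over the 33 genes, and cover the spread between these libraries. The 95% interval of the fold difference lay within 2-fold in either direction for 30 of the 33 genes (90.9%), and within 1.5-fold for 25 (75.8%). Over all genes these shares were 64.4% and 44.1%. All 33 members had a mean of at least 1 CPM, as did 12904 of the 14450 genes. The shares are thus not matched for level, and no share over genes of like level was taken. The 3 genes with wider intervals were Mvk, Tm7sf2 and Elovl6, whose means were all under 7 CPM in both groups.

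**Figure D1:**
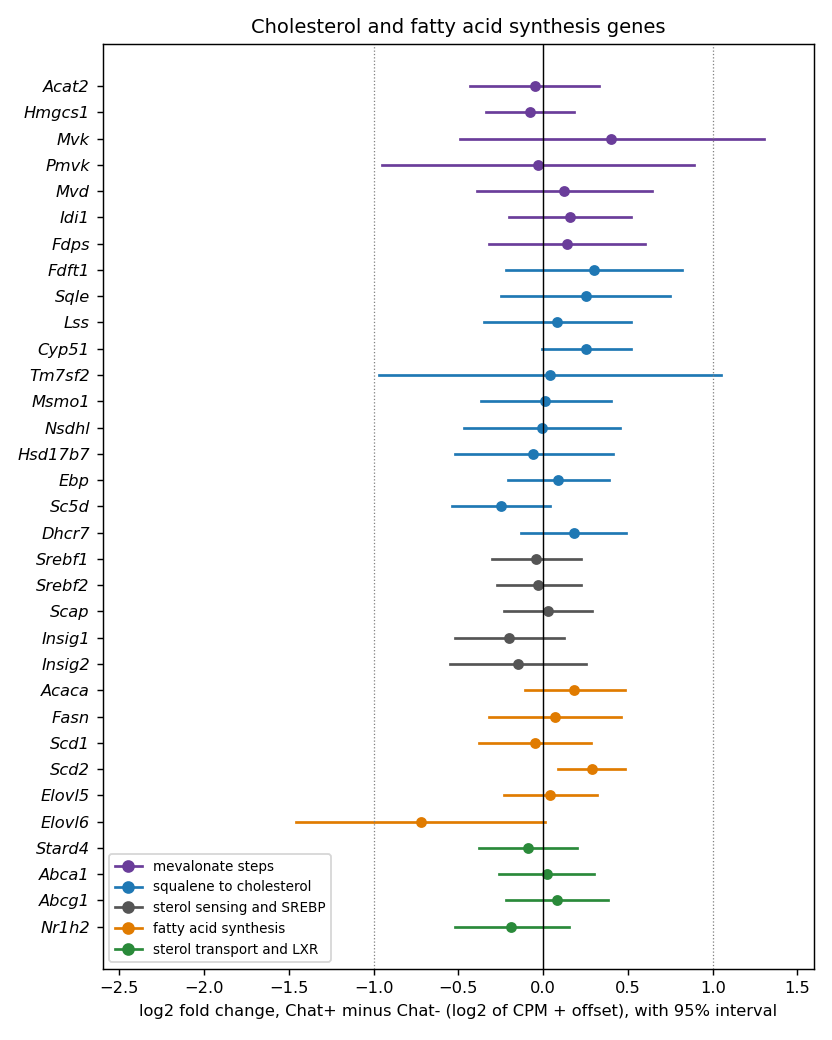
Log2 fold change of each gene (Chat+ minus Chat-, on the scale of log2 of CPM plus offset) with its 95% interval, coloured by role, and dotted lines at a 2-fold difference. The interval of Scd2 (0.09 to 0.48) is the 1 that leaves out 0, and that of Elovl6 (-1.46 to 0.01) is the one that reaches farthest down.

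The early, mevalonate steps did not separate the groups, with 4 of 7 genes positive, but 1 of 7 without Chat- replicate 4 and 0 of 7 with library quality weights. The count was 6 of 7 without Chat+ replicate 5, Chat- replicate 2 or Chat- replicate 3. Hmgcs1, which makes HMG-CoA, had 47.2, 55.1, 43.5, 52.1 and 58.3 CPM in Chat+ replicates 1 to 5 and 51.8, 61.9, 57.1, 45.6 and 54.9 CPM in Chat- replicates 1 to 5. The ranges overlap almost fully. Its log2 fold change was -0.08 ± 0.12 (SE, n = 5 libraries per group), with a 95% interval of -0.34 to 0.18. Idi1, which isomerises isopentenyl diphosphate, had 20, 25.7, 29.7, 20.5 and 32.3 CPM in Chat+ and 23.8, 26.7, 20.3, 22.4 and 20 CPM in Chat-. Chat+ replicates 3 and 5 were the high ones, and the other 3 lay at Chat- levels. Its log2 fold change was 0.16 ± 0.17 (SE, limma adjusted p = 0.999), 0.07 without Chat+ replicate 5 and -0.03 with library quality weights.

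Mevalonate kinase, Mvk, had 5.07, 7.68, 6.29, 6.53 and 6.26 CPM in Chat+ and 5.17, 7.66, 5.84, 1.39 and 7.24 CPM in Chat-. All but Chat- replicate 4 lay in 1 narrow band. The log2 fold change of 0.40 ± 0.41 (SE) became -0.02 without that library. Pmvk, the next kinase, varied more between libraries than between groups, from 9.03 to 28.6 CPM in Chat+ and from 6.50 to 27.7 CPM in Chat-. The other members, Acat2 (acetyl-CoA thiolase), Mvd (mevalonate diphosphate decarboxylase) and Fdps (farnesyl diphosphate synthase), had log2 fold changes of -0.05, 0.12 and 0.14. Some reads of Acat2, Fdps and Idi1 may be of uncertain origin, which was not tested. In GENCODE M21, 43.7%, 27.9% and 18.8% of their 31-base words are shared with another gene's transcripts, most often Acat3, Gm43738 and Gm13502.

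Among the 11 enzymes from squalene to cholesterol, 8 had a positive and 3 a negative fold change, and 0 passed. The split was 7 and 4 with TMM scaling, with median centring or without Chat- replicate 4. It was 5 and 6 with library quality weights, and 10 and 1 without Chat- replicate 2. Cyp51, the lanosterol demethylase, had 35.5, 38.2, 36.7, 32.6 and 48.3 CPM in Chat+ and 30.7, 34.3, 31.8, 29.7 and 32.6 CPM in Chat-. Of the 5 Chat+ libraries, 4 lay above every Chat- library, and Chat+ replicate 4 lay among the upper Chat- values. The means were 38.3 ± 5.98 and 31.8 ± 1.77 CPM (SD, n = 5), with a log2 fold change of 0.25 ± 0.12 (SE, limma unadjusted p = 0.061, adjusted p = 0.999). The log2 fold change of Cyp51 was 0.14 with library quality weights, and its adjusted p ranged from 0.74 to 1 over the alternatives.

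Sc5d, the lathosterol desaturase near the end of the route, had a negative fold change. It had 34.5, 27.6, 35.7, 35.8 and 29.7 CPM in Chat+ and 37.2, 39.6, 37.4, 48.5 and 32.2 CPM in Chat-. In all, 4 Chat- libraries were above all Chat+ libraries, the highest being Chat- replicate 4, and Chat- replicate 5 lay inside the Chat+ range. The log2 fold change was -0.25 ± 0.14 (SE, limma unadjusted p = 0.09, adjusted p = 0.999).

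Squalene synthase (Fdft1) and squalene epoxidase (Sqle), the entry to the sterol branch, had means of 18.2 ± 3.92 against 14.9 ± 3.78 CPM and 17.1 ± 3.52 against 14.7 ± 3.97 CPM (SD, n = 5, Chat+ first). Both were lowest in Chat- replicate 4, at 8.41 and 8.60 CPM. Their log2 fold changes were 0.30 and 0.25, but 0.11 and 0.07 without that library, and -0.02 and 0.01 with library quality weights. Fdft1 shares 14.3% of its 31-base words with other genes, mostly Gm6781. The remaining enzymes of this branch are Lss (lanosterol synthase), Tm7sf2 (sterol C14 reductase), Msmo1 (C4 methyl oxidase), Nsdhl and Hsd17b7 (C4 demethylation), Ebp (the sterol isomerase) and Dhcr7 (the last reductase). Their log2 fold changes lay between -0.06 for Hsd17b7 and 0.18 for Dhcr7. Tm7sf2 had the widest spread of the 33 genes, from 1.78 CPM in Chat- replicate 4 to 9.97 CPM in Chat+ replicate 1, and 12.9% of its words are shared with other genes, most with Vps51.

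The 18 enzymes of cholesterol synthesis together summed to 364, 402, 373, 355 and 395 CPM in Chat+ and 358, 410, 375, 318 and 364 CPM in Chat-. The means were 378 ± 20 and 365 ± 32.9 CPM (SD, n = 5), a ratio of 1.04, or 1 without Chat- replicate 4. In the same libraries the 15 proliferation genes summed to 875, 848, 860, 713 and 522 CPM in Chat+ and 522, 554, 454, 431 and 499 CPM in Chat-. These are Mki67, Top2a, Rrm2, Cdk1, Ccnb1, Ccnb2, Ccna2, Birc5, Tpx2, Nusap1, Kif11, Mcm2, Mcm3, Mcm5 and Pcna. Of these 0 of 15 passed, where 0.00692% of all genes passed, and the smallest limma adjusted p was 0.087. At an unadjusted limma p under 0.05 there were 12 of the 15, against 4.51% of all genes. For 5 of the 15 the Chat+ libraries lay entirely above Chat-, as for 1.12% of all genes. The ratio of means was 1.55 for the proliferation genes, beside 1.04 for the sterol enzymes, and the difference between these ratios was not tested. Among the Chat+ libraries, replicate 5 was the lowest for proliferation and the second highest for sterol enzymes. Abundant genes weigh most in such sums.

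**Figure D2:**
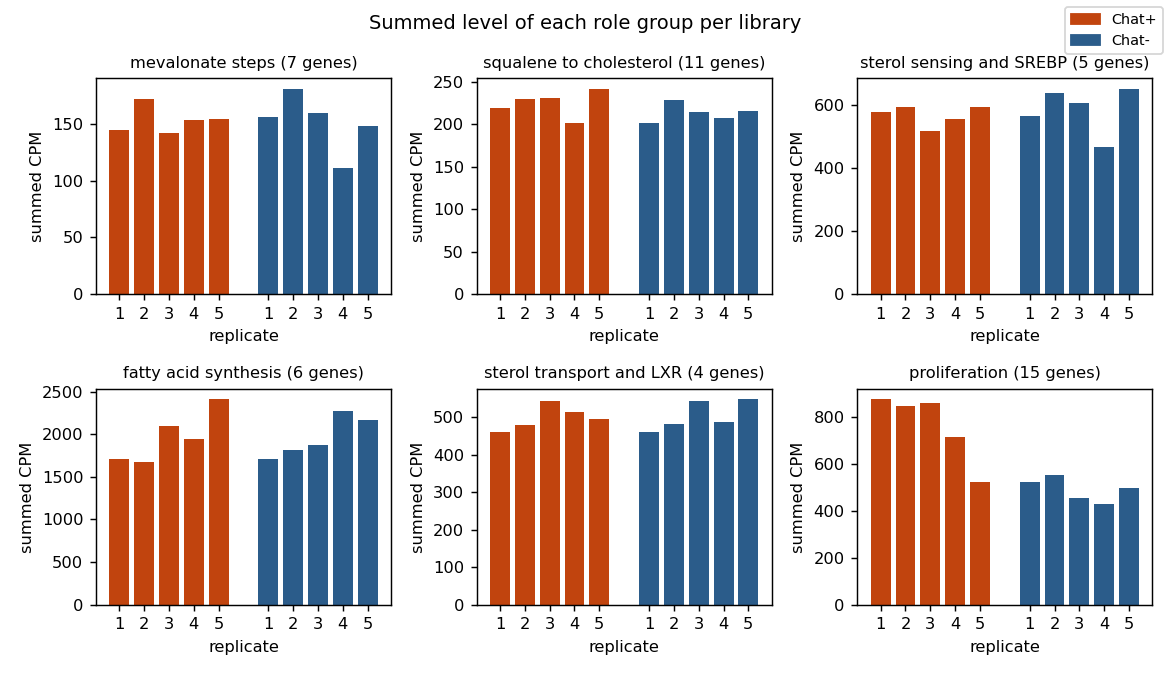
Summed CPM of the genes of each role in each library, with the proliferation genes for comparison; bars start at 0 and are single libraries. The bars of both groups reach like heights in the 5 panels of lipid genes, while the proliferation sums are 713 to 875 CPM in 4 Chat+ libraries, 522 CPM in Chat+ replicate 5 and 431 to 554 CPM in Chat-.

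The 5 regulators had 95% intervals that all lay within 1.5-fold, and 4 of the 5 had a negative fold change. The number with a positive fold change was 1, against 0 with either scaling, with library quality weights and without Chat+ replicate 2 or Chat- replicate 4, 2 without Chat- replicate 2, and 3 without Chat+ replicate 3 or Chat- replicate 5. Srebf2, the gene of the SREBP that drives cholesterol synthesis, had 374, 374, 326, 346 and 376 CPM in Chat+ and 352, 412, 381, 282 and 416 CPM in Chat-. The Chat+ values all lie inside the Chat- range, whose lowest is Chat- replicate 4. Its log2 fold change was -0.03 ± 0.11 (SE), with a 95% interval from 0.827 to 1.17 as a fold. Srebf1, which yields the lipogenic SREBP1 forms, had 84.9, 72.7, 81.3, 79.8 and 76.0 CPM in Chat+ and 80.1, 88.0, 88.6, 61.0 and 92.4 CPM in Chat-. These ranges overlap in the same way, with a log2 fold change of -0.04 ± 0.12 (SE). Scap, the escort, had a log2 fold change of 0.03 ± 0.12 (SE).

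The brakes Insig1 and Insig2 both had negative fold changes and did not pass. Insig1, itself a target of SREBP, had 30.3, 38.6, 23.4, 33 and 37 CPM in Chat+ and 34.6, 35.5, 33.5, 42.4 and 38.5 CPM in Chat-. Of the Chat+ libraries 3 lay below every Chat- library, and the rest within the Chat- range. Insig2 had 25.5, 24.4, 15.8, 26.9 and 33.4 CPM in Chat+ and 28.1, 27.3, 30.7, 26.9 and 23.4 CPM in Chat-. Chat+ replicate 3 was the lowest for both genes. The log2 fold changes were -0.20 ± 0.15 and -0.15 ± 0.18 (SE, limma adjusted p = 0.999 for both), and became -0.09 and 0.01 without Chat+ replicate 3. That of Insig1 was -0.11 with library quality weights.

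Fatty acid genes held both the highest level and the smallest p of the 33 genes. Scd1, the stearoyl-CoA desaturase that makes oleate from stearate, had 1274, 1262, 1682, 1541 and 1909 CPM in Chat+ and 1344, 1413, 1500, 1897 and 1740 CPM in Chat-. Both groups spread over the same range. Scd1 had a log2 fold change of -0.05 ± 0.15 (SE, limma adjusted p = 0.999).

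Its paralogue Scd2 had 211, 192, 186, 165 and 203 CPM in Chat+ and 166, 164, 150, 151 and 151 CPM in Chat-. Chat+ replicates 1, 2, 3 and 5 exceeded every Chat- value, and Chat+ replicate 4 lay just below Chat- replicate 1. The means were 191 ± 17.6 and 156 ± 7.86 CPM (SD, n = 5), with a log2 fold change of 0.29 ± 0.09 (SE), which is 1.22-fold with a 95% interval of 1.07 to 1.4. Scd2 had the smallest p of the 33 genes (unadjusted p = 0.0072), but did not pass over all genes (limma adjusted p = 0.70, and 0.26 to 1 over the alternatives). Scd1 and Scd2 share 8.14% and 6.81% of their 31-base words with other genes, most with Scd3. Within the sum of both genes, the share of Scd2 was 14.2%, 13.2%, 9.95%, 9.67% and 9.60% in Chat+ and 11%, 10.4%, 9.09%, 7.38% and 7.97% in Chat-. The groups overlap in this share (exact two-sided permutation p = 0.13, adjusted p = 0.38 over 3 paralogue pairs). The shares of Srebf1 with Srebf2 (18.1% ± 1.49 against 18.2% ± 0.515, SD, n = 5) and of Insig1 with Insig2 (56.6% ± 3.72 against 57.4% ± 4.19) gave exact permutation p of 0.86 and 0.69. The 3 pairs were chosen after their values were seen.

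Elovl6, which lengthens palmitate to stearate, was the lowest of the 33 genes and had the largest fitted change. It had 2.77, 2.51, 1.4, 3.15 and 1.89 CPM in Chat+ and 3.97, 3.59, 3.13, 5.96 and 2.97 CPM in Chat-. Only Chat+ replicate 4 reached into the Chat- range, and the highest value was that of Chat- replicate 4. The log2 fold change was -0.72 ± 0.34 (SE, limma unadjusted p = 0.054, adjusted p = 0.999). It was -0.84 without Chat+ replicate 4, -0.56 without Chat- replicate 4 or Chat+ replicate 3, and -0.40 with library quality weights. Over the alternatives the unadjusted limma p of Elovl6 ranged from 0.018 (no trend) to 0.15 (library quality weights), and its adjusted p was never under 0.72. At these levels counting error adds to the spread between libraries.

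Fasn, the fatty acid synthase, had 96.3, 103, 89.6, 107 and 137 CPM in Chat+ and 83.7, 106, 108, 72.7 and 146 CPM in Chat-. Replicate 5 was the highest in each group, and the groups covered each other. Acaca, the acetyl-CoA carboxylase that feeds it, had means of 44.1 ± 5.50 and 39.0 ± 6.63 CPM (SD, n = 5), and 33.4% of its 31-base words are shared, most with Gm5182. Elovl5, which lengthens polyunsaturated chains, had 88.2 ± 13.6 and 85.2 ± 10.5 CPM. The log2 fold changes of Fasn, Acaca and Elovl5 were 0.07, 0.18 and 0.04.

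**Figure D3:**
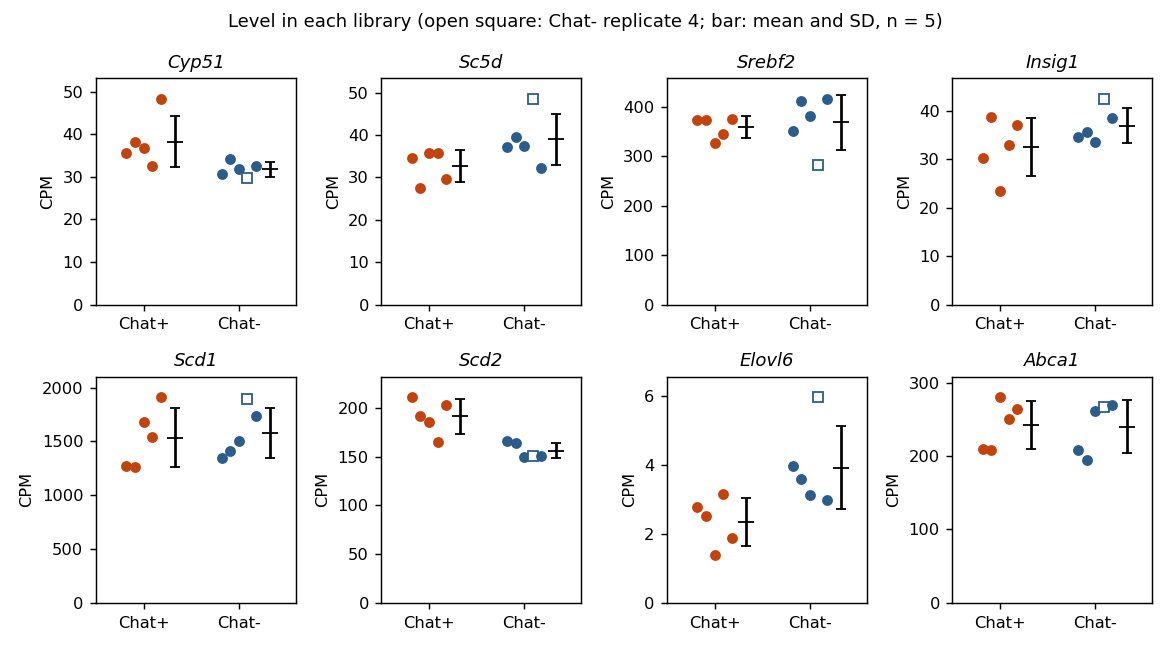
CPM in each library for 8 genes, with Chat+ in orange, Chat- in blue, Chat- replicate 4 as an open square, and the mean ± SD (n = 5) as a black bar; the vertical axes start at 0 and differ between panels. Scd2 lies between 165 and 211 CPM in Chat+ and between 150 and 166 CPM in Chat-, while the groups overlap widely for Scd1, Srebf2 and Abca1.

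Genes that move or export sterol did not separate the groups either. Abca1, the LXR-driven transporter that loads cholesterol onto apolipoprotein, had 210, 208, 280, 251 and 264 CPM in Chat+ and 208, 194, 262, 267 and 269 CPM in Chat-. In each group replicates 1 and 2 were the low ones. This gave a log2 fold change of 0.02 ± 0.13 (SE). Abcg1, a second exporter, had 120, 134, 139, 111 and 130 CPM in Chat+ and 124, 127, 128, 84.3 and 145 CPM in Chat-. The Chat+ values fall inside the Chat- range, whose low end is again Chat- replicate 4.

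Nr1h2, the gene of LXR beta, had 105, 109, 101, 122 and 65.8 CPM in Chat+ and 103, 130, 125, 105 and 101 CPM in Chat-. Chat+ replicate 5 was the lowest and the rest overlapped, with a log2 fold change of -0.19 ± 0.15 (SE, limma adjusted p = 0.999), or -0.04 without Chat+ replicate 5. Stard4, which carries cholesterol between membranes, had 26.1, 29.3, 23.6, 30.4 and 35.6 CPM in Chat+ and 27.0, 31.3, 29.7, 33.4 and 32.0 CPM in Chat-. The Chat- values all lie inside the Chat+ range (log2 fold change -0.09 ± 0.13, SE).

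Levels were also compared between genes, per 1000 bases of annotated exon, where exons of minor transcripts count in full and lower the value. Scd1 stood highest, with a mean of 313 CPM per 1000 bases in Chat+ and 323 in Chat-. Srebf2 followed with 50 and 51.3, then Nr1h2 (30 and 33.6) and Scd2 (35 and 28.6), whose overall means did not differ beyond their SD, Elovl5 (25.1 and 24.2) and Abca1 (23.4 and 23.2). Srebf2 was thus above Srebf1 (14 and 14.6) in both groups, and Insig1 (10.5 and 11.9) above Insig2 (7.26 and 7.86). Among the enzymes of cholesterol synthesis, Ebp (12.5 and 11.7), Pmvk (11.5 and 11.9) and Hmgcs1 (11.2 and 11.8) were highest, and Lss (1.48 and 1.43) and Tm7sf2 (1.33 and 1.4) lowest. Neighbours in this order from Ebp to Hmgcs1 did not differ beyond the SD of their libraries.

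**Figure D4:**
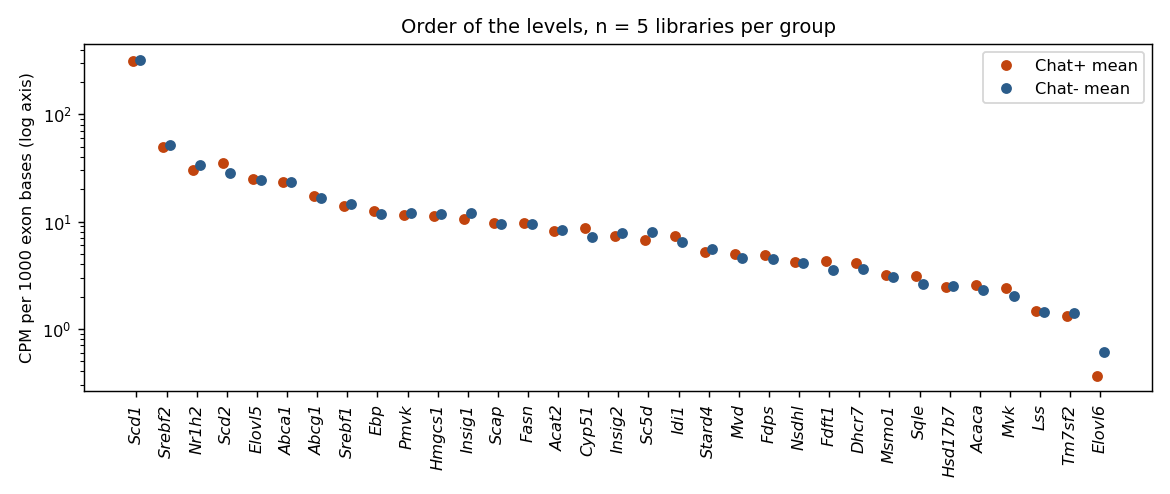
Mean CPM per 1000 exon bases of each gene in Chat+ (orange) and Chat- (blue), n = 5 libraries each, on a log axis and in order of level. The order runs from Scd1 (313 and 323) to Elovl6 (0.365 and 0.610), and the 2 points of most genes nearly coincide.

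A further 69 genes were listed, of which 61 were measured, in sterol synthesis and uptake, SREBP processing, fatty acid and lipid synthesis, LXR targets, and oxysterols with the receptor Gpr183. Of the 61, 35 had a positive and 26 a negative fold change, with a median log2 fold change of 0.02. The split was 29 and 32 with TMM scaling, 27 and 34 with median centring, and 28 and 33 without Chat- replicate 4. It was 25 and 36 with library quality weights, and 40 and 21 without Chat- replicate 3. In either direction 0 passed, and 1 had an unadjusted limma p under 0.05, against 4.51% of all genes. Mylip, an LXR target that encodes a ubiquitin ligase, was the 1 gene whose groups did not overlap. It had 243, 240, 241, 232 and 216 CPM in Chat+ and 267, 260, 261, 266 and 277 CPM in Chat-. All Chat+ libraries lay below all Chat- libraries, as for 0.304% of all genes. In either direction the groups did not overlap for 1.43% of all genes, and 1 of the 61 is near that share. The difference was small, with a log2 fold change of -0.18 ± 0.08 (SE, limma unadjusted p = 0.032, adjusted p = 0.999).

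Other genes with small p were Pltp, the phospholipid transfer protein (54.3 ± 12.7 against 42.7 ± 7.62 CPM, SD, n = 5, Chat+ first) and Rxra, a partner of LXR (2.20 to 5.46 against 0 to 3.09 CPM). In the other direction they were Gpam, which starts glycerolipid synthesis (18.8 ± 2.99 against 22.9 ± 2.56 CPM), and Acsl4, a fatty acid ligase (36.9 ± 5.92 against 42.0 ± 4.88 CPM). All had a limma adjusted p of 0.999.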

How the data were processed

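RNA from sorted cells was made into strand-specific libraries, per the labels' protocols. The authors trimmed reads with cutadapt 2.6 and quantified them with Salmon 0.14.2 against GRCm38.p6, as the submitters' processing notes list. Which annotation was used and what made the final values is not stated in the labels. The deposited values are log2 values, log2(CPM + 0.1148): all 10 libraries share the lowest value, -3.1228, and with that offset removed each library sums to 1000000 CPM. The offset equals 3 reads at the mean depth. Depth was estimated from the step between low values; 35.4% to 48.7% of values under 3 CPM fell on whole reads to within 0.001. That is too few to recover reads, so no count model was run.

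limma 3.58.1 (R 4.3.3) was run on the deposited log2 values of all 14450 genes, with a mean-variance trend and the group as the only term. Tests were two-sided with Benjamini-Hochberg adjustment and a threshold of 0.05. The scripts were tested on simulated data. No filter was applied. Fold changes on the log2(CPM + offset) scale are too small for low genes. Means and SDs in CPM were taken with the offset removed. The 33 genes and the other lists were chosen with earlier results of these data known. Values in every library were given for the 2 genes with the smallest p in each of 5 roles, for Srebf1, Srebf2, Insig1, Scd1, Scd2, Abca1 and Abcg1, and, outside that rule and after their values were seen, for Hmgcs1, Fasn, Mylip and the summed enzymes. Of the other pathway genes the 3 with the smallest p in each direction were to be named, and 1 of them is not reported here. Symbols were matched for 14374 of 14450 identifiers, and exon lengths and 31-base words came from GENCODE M21 (GRCm38). Shared sequence is the percent of a gene's words also found in transcripts of other genes. Alternatives were trimmed-mean (TMM) scaling computed directly, median centring, a pseudocount of 1 CPM, a filter at a mean of 1 CPM, no trend, library quality weights, a replicate block and leaving out each library. Tables and figures used Python 3.11.15, numpy 2.4.6, pandas 2.3.3 and matplotlib 3.10.9.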

Additional observations from a re-analysis of the deposited data

Results flagged for a closer look

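Of 33 genes and 5 role sums, each looked at in both groups (76 sets of 5 libraries), 1 set held a library far from the rest. Fdft1, squalene synthase, was at 8.41 CPM in Chat- replicate 4, against 15.1 to 17.6 CPM in the other Chat- libraries. The gap was 0.727 of the range of the group, above the critical value of 0.71. Chance gives such a gap in about 1 in 20 sets, so 1 of 76 sets is fewer than that rate gives. Chat- replicate 4 is also the library with 1213 genes listed at 0 and 11.9% mitochondrial CPM. The part of these in the low value was not tested.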

How the results depend on the processing

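Under all 17 alternatives 0 of the 33 genes passed, and the smallest adjusted p of any of them was 0.26 (Scd2, library quality weights). Of 561 recomputed fold changes of single genes, 503 kept their sign and 58, from 21 genes, changed it; the cause was not tested. The number of genes called among all 14450 was 1, against 3 without the trend, 105 with library quality weights, 6 with the replicate block, and 1 to 6 when 1 library was left out. The replicate block changed no call among the 33 genes; what a shared number stands for is not given in the labels. Own-number correlations over all genes were -0.20 to 0.23 and 3 of 5 Chat+ libraries correlated best with their own number, so the pairing is undecided. With library quality weights 9 of the 33 had a positive fold change, against 19 in the main fit, and without Chat- replicate 2 there were 23.

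The log2 fold changes that changed sign were -0.02 for Msmo1, -0.01 for Scap and -0.02 for Abca1 with TMM scaling, and -0.03, -0.01 and -0.02 with median centring. With library quality weights they were -0.01 for Mvk and Mvd, -0.03 for Idi1, -0.04 for Fdps, -0.02 for Fdft1, Msmo1 and Fasn, -0.26 for Tm7sf2, -0.05 for Scap and -0.07 for Abcg1. Leaving out 1 library gave ranges that span 0 for Tm7sf2 (-0.34 to 0.25), Hsd17b7 (-0.21 to 0.02), Scd1 (-0.13 to 0.02), Msmo1 (-0.09 to 0.10), Scap (-0.06 to 0.09), Pmvk (-0.39 to 0.22), Srebf2 (-0.12 to 0.02), Insig2 (-0.26 to 0.01), Abca1 (-0.05 to 0.07), Nsdhl (-0.11 to 0.15), Acat2 (-0.12 to 0.04), Fasn (-0.05 to 0.21), Elovl5 (-0.03 to 0.13), Lss (-0.08 to 0.20), Mvk (-0.02 to 0.57), Mvd (-0.03 to 0.24), Fdps (-0.02 to 0.22), Abcg1 (-0.05 to 0.15) and Srebf1 (-0.14 to 0.00). The filter at a mean of 1 CPM kept 12904 genes and all 33 members. The edgeR and DESeq2 fits were not run, since whole reads were not recovered.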

Other observations

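The libraries differed in which of the 33 genes they held at an extreme. Chat- replicate 4 had the lowest value of all 10 libraries for 13 of the 33 genes (39.4%), against 31.6% of all genes, and the highest for 3 (9.09%), against 22.1% of all genes. Chat+ replicate 5 had the highest value for 9 of the 33 (27.3%), against 12.6% of all genes, and the lowest for 2 (6.06%), against 15.8%. The genes that varied most over the 10 libraries were Tm7sf2 (coefficient of variation 45.7%), Pmvk (41.1%), Elovl6 (39.8%) and Mvk (31%), and those that varied least were Srebf2 (10.9%), Hmgcs1 (11.2%), Srebf1 (11.3%) and Scap (11.6%).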
